A study of Arabidopsis thaliana with 35 samples.

Results

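RNA of shoot apices was compared between seedlings that had spent 55 h on mock medium and untreated seedlings, within wild type (WT) and within the polycomb double mutant *clf swn* (*cs*). The libraries were chosen by their names and not by any measured value. They were the 3 mock libraries of each genotype (WT-M and *cs*-M) and the 3 untreated libraries of each genotype that belong to the set named C0 (WT-ctrl and *cs*-ctrl), 12 of the 35 libraries of the study. Of the 28775 genes in the count table, 19910 had enough counts to be tested, and every gene was tested in both genotypes in 1 fit. WT was accession Col-0, and *clf swn* carried the T-DNA alleles clf-29 and swn-3 in the same plants. The double mutant sets no seed, so its seedlings were picked among the progeny of plants that still carried a working CLF copy, once the mutant phenotype showed.

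All plants were 14 days old at the start, grown under long days on agar plates with sucrose. Untreated plants (0 h) were harvested at that age. Mock plants were moved as whole seedlings to fresh plates with the solvent DMSO and no 2,4-D, and harvested 55 h later. The mock groups therefore differ from the untreated groups in age, in the transfer to a fresh plate, in the solvent, and in the hour of day if both harvests were timed from the same start, since 55 h ends 7 h past whole days. These differences cannot be told apart with these samples. At harvest, roots, cotyledons and true leaves were cut away, leaving the regions of the apical and axillary meristems. Replicates 1 to 3 were made at different times and each was sequenced in its own lane, so the replicate number marks a batch shared by all groups.

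CLF and SWN are alternative catalytic subunits of polycomb repressive complex 2 (PRC2), which silences genes by trimethylating lysine 27 of histone H3. Many plant genes also follow the time of day through the circadian clock, a loop in which MYB-like factors of the morning such as CCA1 and LHY repress evening genes such as TOC1 and GI, and pseudo-response regulators (PRR proteins) repress the morning genes in turn. The medium supplies nitrate, phosphate, sulfate and metals, and each of these nutrients controls a well-known set of uptake and assimilation genes.

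Between 11436071 and 18094983 reads were counted on genes in the 12 libraries (median 14578892). A count of 3 corresponded to 0.166 to 0.262 CPM (counts per 1000000 counted reads, the unit of every level given here, with values in the order of replicates 1 to 3). CLF ranged from 38 to 42.3 CPM over WT and from 0.87 to 1.66 CPM over *clf swn*, and SWN at 52 to 56.4 and 23.8 to 31.1 CPM, so both mutated genes were lower in each library labelled *clf swn*. The meristem gene STM was at 62.9 to 90 CPM in WT and 91.8 to 137 CPM in *clf swn*. Of 9 root markers, COBL9 was at 0 in all 12 libraries and EXPA7, EXPA18, RHD6, PLT1 and PLT2 lay at 0 to 0.435 CPM. The other 3 were SCR and SHR, which shoots also express, and WOX5, and of these SCR rose in WT (0.36 on the log2 scale, edgeR adjusted p = 0.018, and 0.06 without WT-M replicate 3). The summed level of the 9 was 63.4 to 69.1 CPM in untreated WT and 72.2 to 91.6 CPM after mock, and 88.3 to 93.3 and 80 to 85.4 CPM in *clf swn*. The 8 vascular markers summed to 80.7 to 111 CPM in untreated WT and 70.5 to 77.7 CPM after mock, and to 59.1 to 64.3 and 72.8 to 80.6 CPM in *clf swn*. Of these 8, the phloem transporter SUC2 fell in WT (-0.84) and had a positive interaction (1.39, edgeR adjusted p = 0.0076). The part of such cell types in the results below was not tested. The 25 embryo and seed genes summed to 74.4 to 137 CPM in WT and to 25587 to 52136 CPM in *clf swn*.

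A second set of untreated libraries, named C1 (2 of WT and 3 of *clf swn*), has the same labels as C0. Against C0, set C1 of WT was higher for 1411 of 20075 genes (7.03%) and lower for 1418 (7.06%) at an adjusted p under 0.05, by the quasi-likelihood test of edgeR and the Benjamini-Hochberg method. In *clf swn* the counts were 195 (0.971%) and 163 (0.812%), and they fell to 0 and 3 without *cs*-ctrl C1 replicate 1 or without its replicate 2. What set C0 and C1 apart is not given in the sources used here. Values of C1 are therefore printed beside many of the results, and "apart from both sets" marks genes that also passed when C0 and C1 together were the untreated group, a fit that counts the difference between the sets as spread. A gene so marked need not have passed relative to C1 alone.

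After mock, 1321 genes were higher in WT (6.63% of 19910) and 1462 lower (7.34%) at an adjusted p under 0.05. In *clf swn*, 363 genes were higher (1.82%) and 218 lower (1.09%). These genes are said to have risen or fallen, or to have passed the test. Where a pass printed with its value was lost by leaving out a library, the largest adjusted p and its library are given, for the gene or over a group of genes, and others may also have ended it. The study tested with DESeq and also asked for a log2 change of at least 0.6 between any pair of replicates. That limit was read here as a stricter rule. By it, the lowest CPM of one side must also exceed the highest of the other by at least 0.6 on the log2 scale. With this stricter rule 242 genes (1.22%) were called higher and 286 (1.44%) lower in WT, and 105 (0.527%) and 23 (0.116%) in *clf swn*. With no adjustment, 5874 genes had a p under 0.05 in WT and 4229 in *clf swn*. The median log2 change over all genes was 0.00 in both genotypes. In bulk RNA, fewer cells of a type and less RNA per cell cannot be told apart, and this holds for every change below.

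The difference between the genotypes was tested as an interaction, the change in *clf swn* minus the change in WT. It was positive for 566 genes (2.84%) and negative for 316 (1.59%). The mean change over both genotypes was positive for 1232 genes (6.19%) and negative for 1230 (6.18%). With the replicate number as a block, which this design allows, 623 genes rose and 406 fell in *clf swn*, and the interaction was positive for 874 and negative for 513 genes, each over 1.5 times the count without the block. The counts rest on which untreated libraries are used. With C1 in place of C0, 192 genes rose (0.961% of 19985) and 354 fell (1.77%) in WT, 433 and 198 did in *clf swn*, and the interaction was positive for 297 (1.49%) and negative for 138 (0.691%). With C0 and C1 together the counts were 263 and 411 in WT, and 256 and 126 in *clf swn*. Single libraries mattered most in *clf swn*, where 48 genes rose and 15 fell without *cs*-ctrl C0 replicate 3, 70 and 14 without *cs*-M replicate 2, and 70 and 23 without *cs*-M replicate 3. In WT, 584 rose and 761 fell without WT-ctrl C0 replicate 1, and 621 and 717 without WT-M replicate 2.

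**Figure D1:**
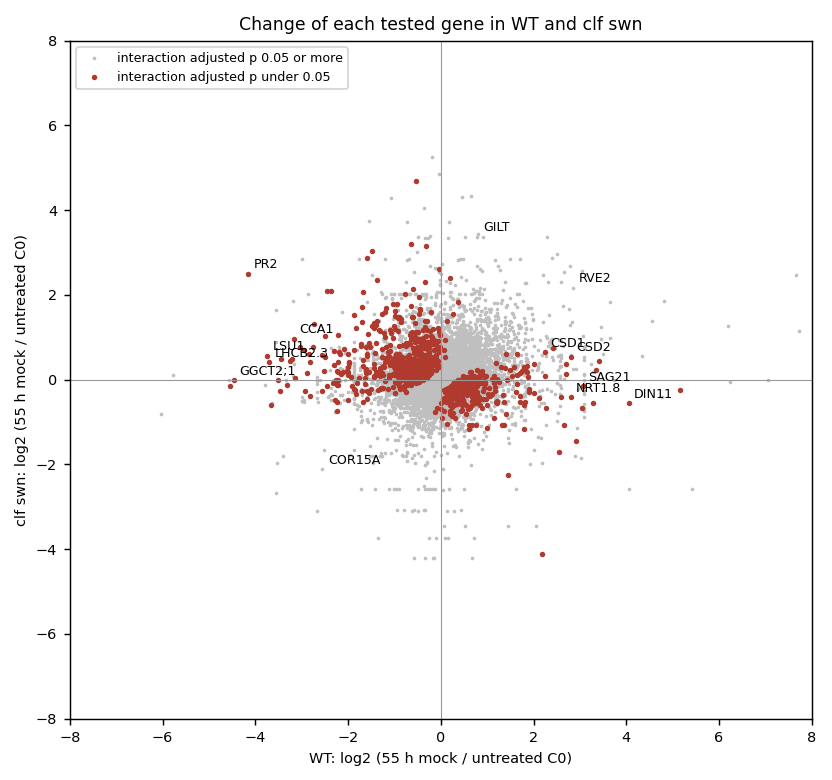
Change of each of the 19910 tested genes in WT (x axis) and in *clf swn* (y axis), each as the log2 ratio of 55 h mock to untreated set C0, fitted by edgeR, with the 882 genes that passed the interaction test in red. LHCB2.3, GGCT2;1 and DIN11 lie far out along the WT axis and within 1 of 0 on the *clf swn* axis, PR2 lies below 0 in WT and above it in *clf swn*, and COR15A and RVE2 lie on the same side on both.

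The genes were grouped into 32 lists by function. In WT the lowest medians were those of the morning clock genes (-1.50), the sulfur genes (-1.35), the light-harvesting and Rubisco genes (-1.25), the phosphate starvation genes (-1.21) and the abscisic acid and cold genes (-1.17). The highest were those of leaf senescence (1.20) and of the nitrate response (1.06). In *clf swn* the medians of these 7 lists lay between -0.11 and 0.50.

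**Figure D2:**
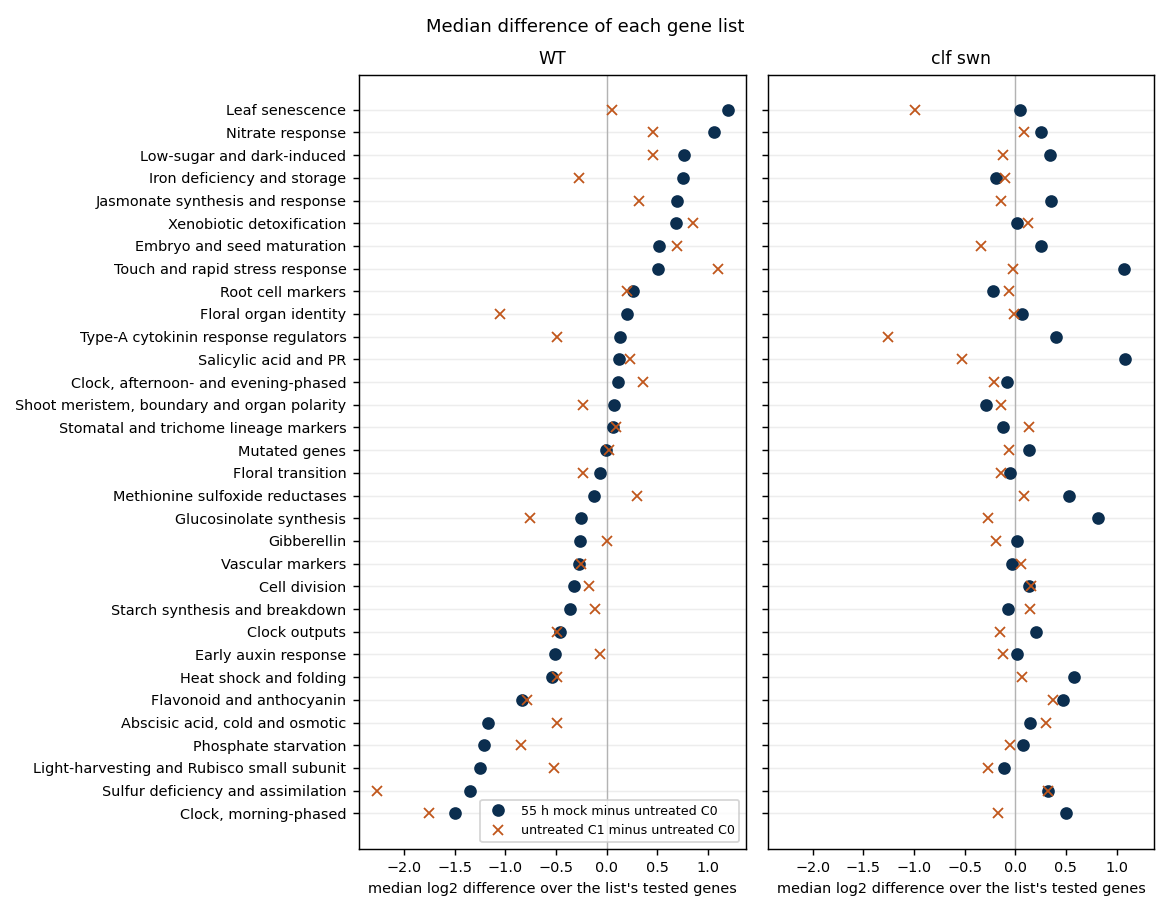
Median log2 difference over the tested genes of each of 32 lists, in WT (left) and *clf swn* (right), for mock minus untreated C0 (circles) and untreated C1 minus untreated C0 (crosses). In WT the crosses lie at or beyond the circles for the morning clock (-1.75 against -1.50) and the sulfur genes (-2.27 against -1.35), and well short of them for the light-harvesting genes (-0.52 against -1.25).

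The clock genes of the morning fell in WT after mock and did not fall in *clf swn*. Of the 12 genes on this list, 8 fell and 1 rose in WT, 1 rose in *clf swn*, and 7 had a positive interaction, of which that of RVE7 was lost at 0.11 without WT-M replicate 2. Over all genes these shares were 7.34%, 6.63%, 1.82% and 2.84%. Against set C1 of WT, 1 of the 12 rose and 0 fell, and 0 of their interactions passed. CCA1 stood at 10.5, 4.81 and 5.8 CPM in untreated WT and at 0.849, 0.442 and 1.1 CPM after mock, a log2 change of -3.16 ± 0.35 (SE, n = 3 per group, edgeR adjusted p = 0.00036). The *clf swn* libraries stood at 5.93, 6.03 and 4.24 CPM before and at 10.7, 11.5 and 9.71 CPM after mock (0.97 ± 0.28, edgeR adjusted p = 0.078). The groups did not overlap in either genotype, and they moved in opposite directions (interaction 4.13, edgeR adjusted p = 0.0018). The second untreated set of WT, at 0.967 and 0.495 CPM, lay with the mock libraries, and against it the change of CCA1 in WT was 0.10 on the log2 scale.

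LHY, the partner of CCA1, stood at 3.35, 1.04 and 5.32 CPM in untreated WT and at 0.54, 0.553 and 0.621 CPM after mock (-2.49 ± 0.55, edgeR adjusted p = 0.014, and 0.055 without WT-M replicate 2). Its *clf swn* levels were 6.57, 8.26 and 6.83 CPM and 20.3, 13 and 10.9 CPM after mock (1.02 ± 0.37, edgeR adjusted p = 0.15), and its interaction was 3.51 (edgeR adjusted p = 0.015). All 3 mock libraries lay below the untreated ones in WT and above them in *clf swn*. Set C1 of WT was lower still, at 0.264 and 0.212 CPM, whereas set C1 of *clf swn* held 7.02, 7.48 and 5.8 CPM.

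The partners of these factors moved the same way in WT. RVE8, a MYB-like activator of evening genes, changed by -1.59 ± 0.22, and LNK1 and LNK2, the co-activators that work with it, by -3.15 ± 0.34 and -2.33 ± 0.23. LNK1 was at 88.8, 64.7 and 56.9 CPM in untreated WT and at 13.3, 6.52 and 4.35 CPM after mock, against 39.2, 32.9 and 21.2 CPM and 34.3, 33.9 and 27.2 CPM in *clf swn*. Its WT groups were far apart and its *clf swn* groups overlapped. In set C1 of WT, LNK1 was at 12.4 and 13.6 CPM, and RVE8 and RVE7 changed by 0.30 and 0.18 against that set. The repressors PRR9 and PRR7 changed by -2.51 ± 0.40 and -1.35 ± 0.27 in WT, and the MYB-like gene RVE7 by -1.41 ± 0.36 (edgeR adjusted p = 0.0027, 0.0092 and 0.024). RVE7 was lost at 0.097 without WT-M replicate 2, and 41.1% of the 50-base words of PRR9 and 58.8% of those of RVE7 occur elsewhere in the genome. Of the 9 morning genes that passed in WT, 7 passed whichever of the 6 WT libraries was left out. RVE4 and RVE6, relatives of RVE8, changed by 0.03 and -0.09, and RVE1 by -0.13, none past the test, while RVE1 reached 1.77 ± 0.43 in *clf swn* (edgeR adjusted p = 0.051).

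RVE2, another MYB-like gene of this family, went the other way and rose in both genotypes. It stood at 7.88, 8.53 and 4.84 CPM in untreated WT and at 64.3, 43.9 and 47.5 CPM after mock (2.86 ± 0.35, edgeR adjusted p = 0.00061). In *clf swn* it stood at 13.1, 17.6 and 5.7 CPM and at 58.9, 64.1 and 41.2 CPM after mock (2.17 ± 0.33, edgeR adjusted p = 0.012). All mock libraries exceeded all libraries of set C0, and the interaction did not pass (-0.69, edgeR adjusted p = 0.44). Set C1 was intermediate in WT, at 15.9 and 22.2 CPM, and in *clf swn* it overlapped with mock, at 48.1, 43.5 and 30.7 CPM, so that RVE2 was apart from both sets in WT only.

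The genes of the afternoon and evening moved less. Of 12, 3 rose and 2 fell in WT, against 6.63% and 7.34% of all genes, and 0 passed in *clf swn*. TOC1, a repressor of CCA1 and LHY, stood at 107, 153 and 118 CPM in untreated WT and at 262, 225 and 175 CPM after mock (0.79 ± 0.18, edgeR adjusted p = 0.014, and 0.06 without WT-ctrl C0 replicate 1). The *clf swn* libraries were at 182, 184 and 131 CPM and 164, 182 and 155 CPM, a change of 0.01, and the interaction passed only with the replicate block (-0.78, edgeR adjusted p = 0.1, and 0.044 with the block). ELF3, a member of the evening complex, rose by 0.51 ± 0.10, and BOA, a relative of the evening complex member LUX, by 2.01 ± 0.22 (edgeR adjusted p = 0.0088 and 0.00031). BOA was the 1 evening gene with an interaction past the test (-1.64, edgeR adjusted p = 0.011), with 45.9% of its exon bases shared with overlapping genes. Set C1 of WT was at 226 and 239 CPM for TOC1, 107 and 110 CPM for ELF3 and 20.7 and 31.8 CPM for BOA. Against it TOC1, ELF3 and BOA changed by -0.10, -0.14 and -0.19, the interaction of BOA was 0.09, and 0 of the 12 evening genes passed (edgeR). GI, a clock and flowering protein, fell by 1.45 ± 0.36, and CHE, a repressor of CCA1, fell by 0.77 ± 0.22 (edgeR adjusted p = 0.022 and 0.037). Both were lost, at 0.09 without WT-M replicate 2 and at 0.11 without WT-ctrl C0 replicate 3.

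GI was at 113, 131 and 110 CPM in untreated WT and at 79.9, 30.1 and 21.4 CPM after mock, with replicate 1 nearest to the untreated level. The same replicate stood highest among the mock libraries for PRR5, at 100, 60 and 32.4 CPM against 88.8, 152 and 89.3 CPM in untreated WT. PRR5, PRR3, LUX and the F-box genes ZTL, FKF1 and LKP2 did not pass in either genotype, with WT changes between -0.79 and 0.39. ELF4, the third member of the evening complex, changed by 0.97 in WT (edgeR adjusted p = 0.08, and 0.025 with the replicate block), with an interaction of -1.34 (edgeR adjusted p = 0.13, and 0.047 with the block).

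**Figure D3:**
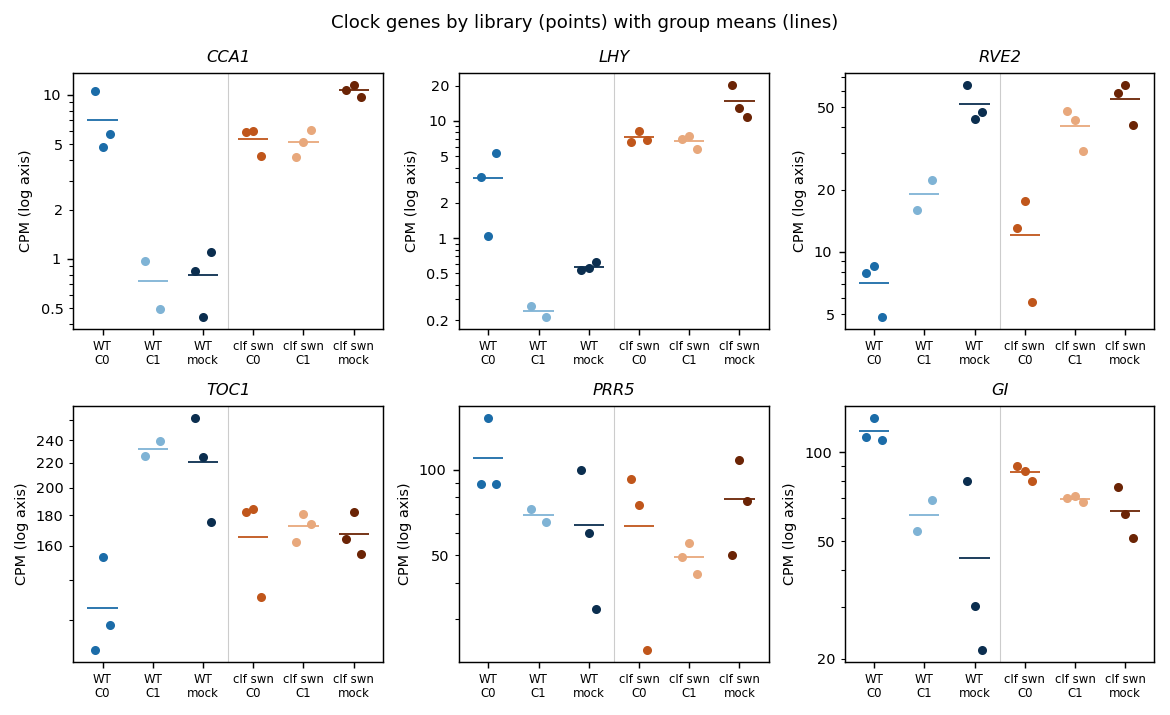
Levels of 6 clock genes in each library (points, CPM on a log axis) with the mean of each group (line), for untreated C0, untreated C1 and 55 h mock in WT and *clf swn*. The WT points of CCA1 and LHY lie low in both C1 and mock while those of *clf swn* do not. RVE2 rises in both genotypes from C0 (4.84 to 17.6 CPM) to mock (41.2 to 64.3 CPM), while its C1 and mock points overlap in *clf swn*.

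Among 16 outputs of the clock, 14 were tested, of which 3 rose and 6 fell in WT and 2 fell in *clf swn*. Over all genes these shares were 6.63%, 7.34% and 1.09%. CDF3, a repressor of flowering, stood at 56.3, 44.4 and 53.7 CPM in untreated WT and at 14.6, 8.4 and 10.4 CPM after mock (-2.24 ± 0.20, edgeR adjusted p = 9.6e-05). Its *clf swn* levels were 4.51 to 5.28 CPM before and 4.11 to 7.18 CPM after mock, and the interaction was 2.43 (edgeR adjusted p = 0.0024). Set C1 of WT was at 8.61 and 19.1 CPM for CDF3, and against C1 0 of the 14 output genes passed in WT (edgeR). The growth-promoting factors PIF4 and PIF5 changed by -2.27 ± 0.31 and -1.94 ± 0.26 in WT, and the B-box genes BBX18 and BBX19 by -2.01 ± 0.32 and -0.61 ± 0.13, with BBX19 at 0.34 against C1. PIF4 also passed with C0 and C1 together (edgeR adjusted p = 0.0082), though not against C1 alone. It was at 105, 117 and 125 CPM in C0, 53.7 and 60 CPM in C1 and 36, 25.7 and 11.2 CPM after mock. CO, the flowering activator that CDF proteins repress, rose in WT from 1.51, 2.25 and 1.02 CPM to 4.94, 4.2 and 6.56 CPM (1.67 ± 0.32, edgeR adjusted p = 0.0063), and CDF4 rose by 1.84 ± 0.39. CO and CDF4 changed by 0.94 and 0.44 in *clf swn*, short of the test, and their interactions did not pass (edgeR adjusted p = 0.36 and 0.19).

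The RNA-binding proteins GRP7 and GRP8 are outputs of the evening. GRP7 was at 3266, 4556 and 3053 CPM in untreated WT and at 6101, 6019 and 5371 CPM after mock, and in *clf swn* at 5081, 5689 and 4192 CPM and then at 3418, 3392 and 3029 CPM. It rose in WT (0.67 ± 0.15, edgeR adjusted p = 0.013, and 0.054 without WT-ctrl C0 replicate 1) and fell in *clf swn* (-0.61 ± 0.15, edgeR adjusted p = 0.049, and 0.14 without *cs*-M replicate 3), with an interaction of -1.28 (edgeR adjusted p = 0.0076). Set C1 of WT held 6126 and 6810 CPM of GRP7, and against it the WT change was -0.18. GRP8 fell in both, by 0.62 ± 0.10 in WT and by 0.92 ± 0.10 in *clf swn* (edgeR adjusted p = 0.0022 and 0.0035). CDF1 changed by -1.28 in WT (edgeR adjusted p = 0.054, and 0.049 with the replicate block). CDF2, COL2 and the catalases CAT2 and CAT3 did not pass in either genotype, with CDF2 passing the interaction with the replicate block only (1.02, edgeR adjusted p = 0.071, and 0.046 with the block). COL1 was listed at 0 in every library and CDF5 had too few counts to be tested, but other annotated genes overlap 100% and 59.9% of their exon bases, and reads there may not have been counted.

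The promoters of CCA1 and LHY, which fell in WT, of RVE2, which rose in both genotypes, and of PRR5, an evening gene that did not pass, are shown because clock and light factors bind short motifs in such start regions. Each runs 5′ to 3′ over 300 bases, from 250 before to 50 after the annotated start in RefSeq's TAIR10.1, and genes counted on TAIR10 were assigned to it by locus name. Capitals mark the G-box CACGTG (bound by bHLH and bZIP factors such as the PIF proteins), the evening element AAAATATCT and the CCA1-binding site AAAAATCT, each on either strand (the last 2 read AGATATTTT and AGATTTTT on the reverse strand).
CCA1, chr2:19245341-19245640, plus strand: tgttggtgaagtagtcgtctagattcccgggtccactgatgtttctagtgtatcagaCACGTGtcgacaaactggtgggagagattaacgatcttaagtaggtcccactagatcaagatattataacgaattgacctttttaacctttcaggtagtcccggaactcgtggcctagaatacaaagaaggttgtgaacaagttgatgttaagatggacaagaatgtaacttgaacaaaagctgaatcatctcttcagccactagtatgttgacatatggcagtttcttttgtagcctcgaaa
LHY, chr1:37822-38121, minus strand: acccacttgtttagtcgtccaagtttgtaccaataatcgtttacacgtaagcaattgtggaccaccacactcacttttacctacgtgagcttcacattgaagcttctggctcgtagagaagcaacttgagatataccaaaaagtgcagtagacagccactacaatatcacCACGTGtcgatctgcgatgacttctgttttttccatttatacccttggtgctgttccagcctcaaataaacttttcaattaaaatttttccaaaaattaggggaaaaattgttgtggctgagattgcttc
RVE2, chr5:14753039-14753338, minus strand: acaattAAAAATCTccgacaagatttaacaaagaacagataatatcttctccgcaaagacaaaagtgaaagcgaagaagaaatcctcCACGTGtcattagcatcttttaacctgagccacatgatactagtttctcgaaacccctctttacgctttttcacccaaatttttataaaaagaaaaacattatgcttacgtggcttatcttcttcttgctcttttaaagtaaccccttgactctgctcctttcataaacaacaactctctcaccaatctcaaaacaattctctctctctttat
PRR5, chr5:8358497-8358796, minus strand: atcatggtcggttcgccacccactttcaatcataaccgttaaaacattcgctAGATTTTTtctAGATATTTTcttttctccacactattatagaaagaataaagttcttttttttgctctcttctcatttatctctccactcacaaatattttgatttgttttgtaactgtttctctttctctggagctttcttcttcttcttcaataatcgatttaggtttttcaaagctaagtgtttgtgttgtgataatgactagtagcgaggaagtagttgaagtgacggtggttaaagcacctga

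CCA1 and LHY each held 1 G-box and neither of the other motifs, RVE2 held a G-box and a CCA1-binding site, and PRR5 held an evening element and a CCA1-binding site next to each other. A G-box was present in 9 of the 12 morning genes, 2 of the 12 evening genes and 7.68% of the 27443 promoters of that length in the genome. The evening element was present in 2 of the morning genes, 5 of the evening genes and 2.82% of all promoters, and the CCA1-binding site in 2 and 2 of these genes and 7.88% of all. The motifs describe the letters of these windows only.

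The genes of the light-harvesting antenna fell together in WT. Of the 23 antenna and Rubisco small subunit genes, 16 fell and 4 rose in WT, 1 rose in *clf swn*, and 14 had a positive and 1 a negative interaction. The 16 included 13 by the stricter rule, against 1.44% of all genes. LHCB2.1, a subunit of the mobile antenna of photosystem II, stood at 705, 649 and 857 CPM in untreated WT and at 101, 56 and 38.2 CPM after mock (-3.52 ± 0.31, edgeR adjusted p = 9.1e-05). In *clf swn* it stood at 105, 71.4 and 82.5 CPM and at 88.4, 92.8 and 75.8 CPM (-0.01 ± 0.28), and the interaction was 3.50 (edgeR adjusted p = 0.0023). The WT groups were far apart and the mock level of WT reached that of *clf swn*, whose groups overlapped.

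LHCB2.2 and LHCB2.3, its near copies, changed by -3.47 ± 0.33 and -3.70 ± 0.39 in WT, and 23.5% and 29.5% of the 50-base words of LHCB2.1 and LHCB2.2 occur elsewhere, and as the authors kept unique alignments only, reads of these stretches may be missing. LHCB3, whose sequence is not repeated, stood at 1681, 1552 and 1757 CPM in untreated WT and at 385, 273 and 200 CPM after mock, with 712 and 731 CPM in set C1 (-2.56 ± 0.19, edgeR adjusted p = 4.4e-05). The 5 LHCB1 genes of the same antenna changed by -0.81 (LHCB1.3) to -2.46 (LHCB1.4) in WT. In the minor antenna, LHCB4.2 changed by -1.77, LHCB5 by -1.02 and LHCB6 by -0.92. In photosystem I, LHCA1 changed by -1.51, LHCA2 by -0.48, LHCA3 by -1.25 and LHCA4 by -1.64. All of these passed, and they were lower after mock than in either untreated set, so that 16 of the 23 genes also fell with C0 and C1 together.

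The exceptions were LHCB4.3 and the Rubisco genes. LHCB4.3, an isoform of the minor antenna, rose in WT from 9.73, 13.1 and 8.18 CPM to 23.1, 23.7 and 25.4 CPM (1.20 ± 0.15, edgeR adjusted p = 0.00085), and its interaction was -0.81 (edgeR adjusted p = 0.048, and 0.11 without WT-ctrl C0 replicate 1). RBCS1B, RBCS2B and RBCS3B, adjacent copies of the Rubisco small subunit, rose by 0.91 ± 0.16, 0.84 ± 0.18 and 0.64 ± 0.17 in WT. RBCS2B and RBCS3B were lost with 1 library left out (edgeR adjusted p = 0.055 and 0.12 without WT-M replicate 2), and the other 18 of the 20 genes were not. RBCS1B also rose in *clf swn*, by 0.69 ± 0.16 (edgeR adjusted p = 0.047, and 0.15 without *cs*-ctrl C0 replicate 3). RBCS1A, another copy, changed by 0.28, LHCB4.1 by -0.14 and LHCB7 by -0.32 in WT, none past the test.

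The summed level of the 23 genes was 30223 to 38747 CPM in untreated WT, 26443 to 29263 CPM in set C1 and 17267 to 20751 CPM after mock. In *clf swn* it was 11494 to 13081 CPM, 11203 to 12033 CPM and 10616 to 12309 CPM. The WT groups were separate, in the order C0, C1 and mock, and those of *clf swn* overlapped below all of them. True leaves were removed at harvest, and how much young leaf tissue remained in each library was not tested. The stomatal and trichome genes, which young leaves also express, summed to 91.2 to 109 CPM in untreated WT and 98.1 to 107 CPM after mock. Of the 6, 0 passed in either genotype (edgeR) and 1 had a negative interaction, which was lost with 1 library left out. Whether these genes follow the amount of leaf tissue in the libraries was not tested.

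Sulfur-deficiency genes also fell in WT. Of the 10 tested, 8 fell in WT (7 of them called, against 1.44% of all genes), 0 passed in *clf swn*, and 7 had a positive interaction. GGCT2;1, an enzyme of glutathione breakdown, stood at 10.6, 8.16 and 6.55 CPM in untreated WT and at 0.772, 0.276 and 0.138 CPM after mock (-4.46 ± 0.50, edgeR adjusted p = 0.00038). The *clf swn* libraries stood at 12.9, 14.4 and 21.8 CPM and at 24.2, 13.6 and 11 CPM (-0.02 ± 0.31), and the interaction was 4.45 (edgeR adjusted p = 0.004). Every WT mock library lay below 1 CPM and every *clf swn* library above 10 CPM.

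LSU1 and LSU2, small proteins induced by low sulfur, changed by -3.75 ± 0.54 and -3.31 ± 0.56 in WT, and SDI1, which slows glucosinolate synthesis under low sulfur, by -3.21 ± 0.46. LSU1 was at 9.89, 14 and 4.09 CPM in untreated WT, 0.44 and 0.566 CPM in set C1 and 1.31, 0.442 and 0.414 CPM after mock, and over *clf swn* it ranged from 5.15 to 14.6 CPM. APR1 and APR2, which reduce activated sulfate, changed by -1.16 and -1.26, the vacuolar sulfate exporter SULTR4;2 by -0.99 and SHM7, a serine hydroxymethyltransferase, by -1.45. APR1 was lost without WT-ctrl C0 replicate 1 (edgeR adjusted p = 0.12), and 7 of the 8 passed with any 1 library left out. Set C1 was also low, with 9 of the 10 genes past the test as lower than set C0 in WT and 0 above it. Against C0 and C1 together GGCT2;1 and SULTR4;2 fell (edgeR adjusted p = 0.025 and 0.0054). The interaction of APR1 passed only with the replicate block (1.58, edgeR adjusted p = 0.07, and 0.013 with the block), and that of LSU2 was lost at 0.075 without *cs*-M replicate 1.

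Cold and abscisic acid genes fell in WT and in part in *clf swn*. Of 16, 8 fell in WT and 4 in *clf swn*, where all 4 also fell in WT, and 2 had a positive interaction. The shares over all genes were 7.34% lower in WT, 1.09% lower in *clf swn* and 2.84% with a positive interaction. COR15A, a chloroplast protein that stabilizes membranes during freezing, stood at 139, 181 and 182 CPM in untreated WT and at 25.9, 37.1 and 23.4 CPM after mock (-2.55 ± 0.41, edgeR adjusted p = 0.0026). Its *clf swn* levels were 122, 82.2 and 296 CPM and 49, 34.5 and 33.8 CPM (-2.11 ± 0.40, edgeR adjusted p = 0.026, and 0.1 without *cs*-M replicate 2). Mock libraries lay below untreated ones in both genotypes, below set C1 too (48.3 and 141 CPM in WT, 102 to 130 CPM in *clf swn*), and COR15A was apart from both sets in each.

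KIN1 and COR15B, relatives in the same cold regulon, and the dehydrin RAB18 were the other 3 genes that fell in both. They changed by -2.51, -0.98 and -1.57 in WT and by -1.65, -1.15 and -1.01 in *clf swn*, and all 4 *clf swn* calls were lost with 1 library left out (edgeR adjusted p up to 0.13, for KIN1 without *cs*-M replicate 2). The WT change of RAB18 was lost at 0.14 without WT-ctrl C0 replicate 2. KIN2 fell in WT from 555, 733 and 703 CPM to 121, 166 and 142 CPM (-2.23 ± 0.20, edgeR adjusted p = 9.9e-05) and was at 1055, 884 and 1453 CPM and 790, 637 and 602 CPM in *clf swn* (-0.75 ± 0.19, edgeR adjusted p = 0.057). Its interaction passed (1.48, edgeR adjusted p = 0.013), as did that of GOLS1, an enzyme of raffinose synthesis, which changed by -2.22 ± 0.24 in WT and 0.17 in *clf swn*. RD29A changed by -1.35 in WT. GOLS3 changed by -3.33 in WT (edgeR adjusted p = 0.017, and 0.066 without WT-M replicate 2) and was at 0 in each *clf swn* library. CBF3, an activator of the cold regulon counted among the rapid stress genes, stood at 7.96, 9.38 and 6.96 CPM in untreated WT and at 1.93, 0.939 and 0.621 CPM after mock (-2.84 ± 0.52, edgeR adjusted p = 0.0055).

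**Figure D4:**
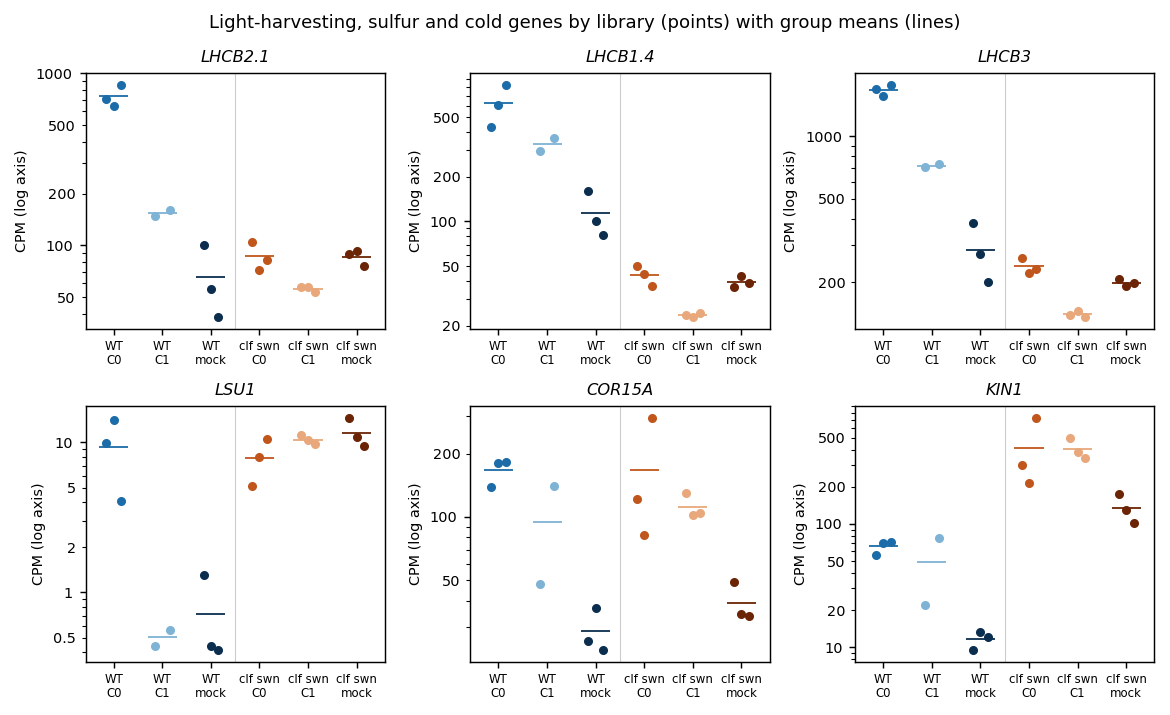
Levels of the antenna genes LHCB2.1, LHCB1.4 and LHCB3, the sulfur gene LSU1 and the cold genes COR15A and KIN1 in each library (points, CPM on a log axis) with group means (lines), in the groups untreated C0, untreated C1 and 55 h mock of WT and *clf swn*. The antenna genes fall stepwise from C0 to C1 to mock in WT only, LSU1 is low in both C1 and mock of WT, and COR15A and KIN1 are lowest after mock in both genotypes.

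Copper genes were not on a list and are described because CSD1 and CSD2 stood among the called genes, so they were chosen after their values were seen and carry no test as a group. Copper supply controls which superoxide dismutase a plant makes. Under low copper the factor SPL7 induces microRNA miR398, which removes the messages of the copper/zinc dismutases CSD1 and CSD2 and of their copper chaperone CCS, and the iron dismutase FSD1 takes their place. Of 20 such genes 16 were tested, of which 5 rose and 6 fell in WT and 0 passed in *clf swn*.

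CSD2, the chloroplast enzyme, stood at 19.9, 20.5 and 18.3 CPM in untreated WT, at 38.2 and 27.7 CPM in set C1 and at 193, 101 and 122 CPM after mock (2.81 ± 0.22, edgeR adjusted p = 6.4e-05). In *clf swn* it stood at 60.9, 75 and 49.8 CPM, 129, 119 and 123 CPM and 81.7, 99.6 and 90.2 CPM (0.54 ± 0.21, edgeR adjusted p = 0.16). In WT mock was the highest group, whereas in *clf swn* set C1 was the highest and mock lay between the untreated sets. CSD1, the cytosolic enzyme, was at 19.7, 27.5 and 24.7 CPM in untreated WT and at 143, 83.1 and 120 CPM after mock (2.24 ± 0.20, edgeR adjusted p = 0.00011), against 37.4, 46.1 and 31 CPM and 54.5, 64.8 and 60.9 CPM in *clf swn* (0.65 ± 0.20, edgeR adjusted p = 0.094). The interactions of CSD2 and CSD1 were -2.27 and -1.59 (edgeR adjusted p = 0.0032 and 0.011), and both passed with any 1 of the 12 libraries left out.

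CCS rose in WT from 13.6, 16.2 and 15.6 CPM to 49.6, 29.1 and 35.1 CPM (1.30 ± 0.18, edgeR adjusted p = 0.0011). AT3G15640, annotated with cytochrome c oxidase activity, rose by 0.88 ± 0.08 and ARPN, a blue copper protein, by 1.48 ± 0.25 (edgeR adjusted p = 0.00011 and 0.0035). All 5 genes that rose were apart from both untreated sets. In the other direction, FSD1 stood at 1451, 1611 and 1645 CPM in untreated WT and at 627, 987 and 983 CPM after mock (-0.87 ± 0.19, edgeR adjusted p = 0.014). The copper chaperone CCH changed by -0.77 ± 0.14, the copper transporter COPT2 by -1.09 ± 0.30 and the metal transporter ZIP2 by -1.14 ± 0.32 (edgeR adjusted p = 0.0055, 0.034 and 0.036). COPT2 and ZIP2 were lost at 0.1 and 0.11 without WT-ctrl C0 replicate 3. SPL7 itself changed by -0.08 in WT and 0.13 in *clf swn*, and COPT1, LAC3, LAC12 and LAC13 did not pass in either genotype.

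The microRNA precursor MIR398c stood at 3.61, 3.72 and 4.98 CPM in untreated WT, 3.43 and 3.25 CPM in set C1 and 0.154, 1.33 and 1.24 CPM after mock (-2.13 ± 0.46, edgeR adjusted p = 0.012). The *clf swn* libraries were at 1.03, 1.43 and 1.66 CPM and at 0.711, 1.56 and 0.962 CPM (-0.36 ± 0.51, edgeR adjusted p = 0.73). Every WT mock library lay below every untreated WT library, and the *clf swn* groups overlapped at the level of WT mock. The interaction did not pass (1.77, edgeR adjusted p = 0.17). MIR857 changed by -2.08 ± 0.45 in WT (edgeR adjusted p = 0.013). These are reads of the precursor transcripts and not of the mature microRNAs. MIR398b and MIR408 were listed at 0 in all libraries, with 100% of their bases overlapped by other genes, so that their reads may not have been counted, and MIR398a and MIR397a had too few counts to be tested.

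The mature miR398c and its best matches in the messages of CSD2, CSD1, CCS and AT3G15640 are shown because the precursor and these messages moved in opposite directions in WT. ARPN, which also rose, is left out. Whether the microRNA acted on any of these messages was not tested. The microRNAs are RefSeq annotations on TAIR10.1 with the seed, bases 2 to 8, in capitals.
miR398c-3p, chr5:4694778-4694798, plus strand: uGUGUUCUcaggucaccccug
miR857, chr4:7878198-7878218, minus strand: uUUUGUAUguugaagguguau
The best match to miR398c-3p in each spliced message, with bases that pair by Watson and Crick in capitals, was as follows.
CSD2, chr2:12015572-12015593, plus strand: tgcGGGTGACCTGgGaAACAtA
CSD1, chr1:2827177-2827685, plus strand, across an intron: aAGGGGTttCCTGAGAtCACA
CCS, chr1:4267521-4267542, minus strand: CAttGGGaGACCTGgGAACACt
AT3G15640, chr3:5299204-5299225, plus strand: aAGGtGTGACCTGAGAAtCACA
The CSD2 match had 16 paired bases, 4 G-U pairs, 1 mismatch and 1 bulged base, that of CSD1 17 paired bases and 4 mismatches, that of CCS 17 paired bases, 1 G-U pair, 3 mismatches and 1 bulged base, and that of AT3G15640 19 paired bases, 2 mismatches and 1 bulged base. Matches as good were found in 19, 19, 66 and 3 of 31342 genes.

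**Figure D5:**
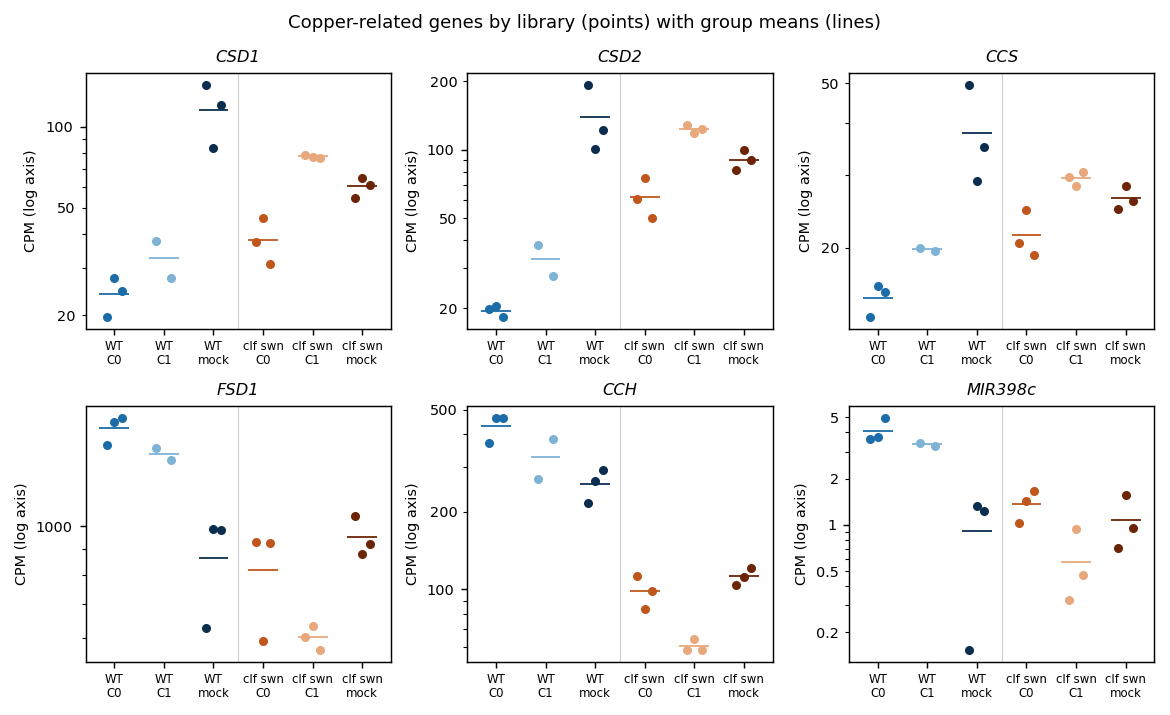
Levels of the dismutases CSD1 and CSD2, the chaperone CCS, the iron dismutase FSD1, the chaperone CCH and the precursor MIR398c in each library (points, CPM on a log axis) with group means (lines), in untreated C0, untreated C1 and 55 h mock of WT and *clf swn*. In WT the mock points of CSD1, CSD2 and CCS lie above both untreated sets and those of FSD1 and MIR398c below, while in *clf swn* CSD1 and CSD2 are highest in set C1.

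Genes of the nitrate response rose in WT relative to C0. Of 13, 7 rose in WT (5 called, against 1.22% of all genes), 0 passed in *clf swn*, and 1 had a negative interaction. Relative to C1, 0 of the 13 passed in WT (edgeR), with a median change of 0.56, and 5 genes passed as higher in C1 than in C0. With C0 and C1 together, 5 rose in WT. NIA2, the main nitrate reductase, stood at 149, 184 and 229 CPM in untreated WT, 422 and 540 CPM in set C1 and 793, 919 and 1319 CPM after mock (2.41 ± 0.29, edgeR adjusted p = 0.00056). Its *clf swn* levels were 382, 381 and 379 CPM and 376, 708 and 844 CPM (0.75 ± 0.27, edgeR adjusted p = 0.15). Mock replicate 1 of *clf swn* lay just below the untreated level and the other mock libraries lay above it. The interaction of NIA2 was -1.65 (edgeR adjusted p = 0.036, and 0.088 without WT-ctrl C0 replicate 1).

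NIA1, the other nitrate reductase, rose by 2.91 ± 0.52 in WT, NIR1, nitrite reductase, by 1.09 ± 0.15, and UPM1, which makes the siroheme of nitrite reductase, by 1.06 ± 0.18. The regulators HRS1 and LBD38 rose by 2.89 and 1.07, and G6PD3 by 0.63. LBD38 and G6PD3 were lost without WT-ctrl C0 replicate 1 (edgeR adjusted p = 0.058 and 0.065). With the replicate block NIR1 and LBD37 also rose in *clf swn* (edgeR adjusted p = 0.042 and 0.045), and NIA1, NIR1 and UPM1 passed the interaction (edgeR adjusted p = 0.0056, 0.029 and 0.023). NRT1.8, which unloads nitrate from the xylem and was not on the list, stood at 4.02, 5.97 and 7.02 CPM in untreated WT, 80.2 and 109 CPM in set C1 and 34.5, 60.7 and 25.3 CPM after mock (2.80 ± 0.40, edgeR adjusted p = 0.0015), so that mock lay between the untreated sets and the change was -1.25 against C1.

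Phosphate starvation genes fell in WT. Of 12 tested, 10 fell in WT relative to C0, 0 passed in *clf swn*, and 2 had a positive interaction. The shares over all genes were 7.34% lower in WT and 2.84% with a positive interaction. Relative to C1, 0 of 11 passed in WT (edgeR), with a median change of -0.12. SPX1, a phosphate sensor induced by starvation, stood at 106, 57.4 and 25.7 CPM in untreated WT and at 14.7, 13.5 and 13.6 CPM after mock (-2.17 ± 0.50, edgeR adjusted p = 0.015, and 0.065 without WT-ctrl C0 replicate 1). In *clf swn* it was at 34.9, 46.5 and 16 CPM and 22.2, 43 and 53 CPM (0.27 ± 0.47). The untreated WT libraries were far apart from each other while the WT mock libraries were alike. The noncoding RNA AT4, which binds miR399, changed by -1.88 ± 0.31, and the lipid enzymes MGD2 and SQD2, which replace phospholipids, by -1.30 ± 0.25 and -0.66 ± 0.12 (edgeR adjusted p = 0.0033, 0.0068 and 0.0048). These 3 genes passed with any 1 library left out and with C0 and C1 together, though not relative to C1 alone. The other 7 (SPX1, SPX2, MGD3, PHT1;4, PHO1;H1, SQD1 and PS2) were each lost with at least 1 library left out. The largest adjusted p was 0.13 for PHT1;4, without WT-M replicate 2, and 0.065 to 0.16 for the other 6, without WT-ctrl C0 replicate 1. Set C1 of WT was at 18.2 and 11.7 CPM for SPX1. PS2, a phosphatase, changed by -1.43 in WT and 1.22 in *clf swn* (edgeR adjusted p = 0.12, and 0.028 with the replicate block), with an interaction of 2.65 (edgeR adjusted p = 0.027, and 0.074 without *cs*-M replicate 2).

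Of 10 iron genes tested, 3 rose in WT, against 6.63% of all genes, and 0 passed in *clf swn*. They were the transporter OPT3 (0.82), the reductase FRO3 (0.86) and the regulator PYE (0.68), at edgeR adjusted p of 0.04, 0.032 and 0.035, and each was lost with 1 library left out (0.13, 0.12 and 0.12 without WT-ctrl C0 replicate 1). In *clf swn* NAS1, a nicotianamine synthase that was not on the list, rose from 1.42, 1.12 and 1.13 CPM to 9.03, 5.01 and 5.51 CPM (2.41 ± 0.38, edgeR adjusted p = 0.014, and 0.059 without *cs*-ctrl C0 replicate 3), while it changed by 0.19 in WT, where it was at 39 to 80.5 CPM in C0 and mock. Its interaction was 2.22 (edgeR adjusted p = 0.02, and 0.054 without *cs*-ctrl C0 replicate 3). Set C1 was at 21.2 and 24.6 CPM in WT and at 5.65, 2.81 and 4.11 CPM in *clf swn*, and with it as the untreated group the interaction was -0.82.

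Sugar and starch genes changed in WT. Of 19 starch genes, 9 fell in WT, 1 rose and 1 fell in *clf swn*, and 4 had a positive interaction. Over all genes these shares were 7.34%, 1.82%, 1.09% and 2.84%. GBSS1, the granule-bound starch synthase, stood at 57.3, 43.4 and 53.3 CPM in untreated WT and at 14.4, 16.9 and 22.3 CPM after mock (-1.54 ± 0.19, edgeR adjusted p = 0.00062), and at 101, 108 and 85.2 CPM and 89.7, 112 and 136 CPM in *clf swn* (0.19 ± 0.17). APL3, a subunit of ADP-glucose pyrophosphorylase, changed by -1.61 ± 0.22 in WT and 0.25 in *clf swn*. The interactions of GBSS1 and APL3 were 1.73 and 1.86 (edgeR adjusted p = 0.0053 and 0.0067). Set C1 of WT was at 25.1 and 25.3 CPM for GBSS1. The soluble starch synthase SS1 changed by -0.46. Among enzymes of starch breakdown, SEX4 and DPE2 changed by -0.47 and -0.47, PHS1 by -0.46, BAM5 by -1.55, AMY3 by -0.58 and ISA3 by -0.30. PHS1 and ISA3 were lost at 0.055 and 0.14 without WT-ctrl C0 replicate 2, and BAM5 and AMY3 at 0.072 and 0.089 without WT-M replicate 2. SEX4 also fell in *clf swn* (-0.34, edgeR adjusted p = 0.026, and 0.1 without *cs*-M replicate 2). BAM9, a beta-amylase-like protein without catalytic activity, rose in *clf swn* from 19.2, 10.8 and 5.77 CPM to 72, 74.2 and 30.7 CPM (2.30 ± 0.49, edgeR adjusted p = 0.036, and 0.12 without *cs*-M replicate 2), with set C1 at 59.5, 52.6 and 16.1 CPM.

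Genes induced by darkness or low sugar rose in part. Of 12, 5 rose in WT, against 6.63% of all genes, and 0 passed in *clf swn* (edgeR). Each of the 5 was lost with 1 library left out. PRODH1, proline dehydrogenase, stood at 22.8, 10.4 and 55.6 CPM in untreated WT and at 144, 117 and 127 CPM after mock (2.10 ± 0.45, edgeR adjusted p = 0.012, and 0.057 without WT-ctrl C0 replicate 1). BT2, a nitrogen- and sugar-responsive adaptor protein, changed by 2.41 and the dark-induced genes SEN1 and DIN4 by 2.15 and 0.62. BT2, SEN1 and DIN4 were lost at 0.058, 0.081 and 0.11 without WT-ctrl C0 replicate 1, and BGLU30, a beta-glucosidase, at 0.065 without WT-M replicate 2. BGLU30 had 3 counts over the untreated WT libraries and 40 after mock, a ratio of 12.6 (exact 95% interval 4.01 to 63.6, covering counting error only), with set C1 at 0 and 0.141 CPM, and changed by 0.95 in *clf swn*, where it lay at 13.5 to 38.7 CPM (edgeR adjusted p = 0.058, and 0.029 with the replicate block). In leaf senescence, SAG21 stood at 12.7, 21.4 and 32.2 CPM in untreated WT, 77.3 and 121 CPM in set C1 and 166, 192 and 209 CPM after mock (3.06 ± 0.38, edgeR adjusted p = 0.00071), and at 520, 637 and 1091 CPM and 445, 727 and 854 CPM in *clf swn* (-0.16 ± 0.34). The WT mock libraries exceeded all other WT libraries and stayed below every *clf swn* library, and the interaction was -3.22 (edgeR adjusted p = 0.0065).

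Of 19 flavonoid and anthocyanin genes, 6 fell in WT relative to C0, 1 rose in *clf swn* (3 with the replicate block), and 5 had a positive interaction. Over all genes, without the block, these shares were 7.34%, 1.82% and 2.84%. DFR, the first enzyme of the anthocyanin branch, stood at 88.1, 131 and 116 CPM in untreated WT and at 19.1, 25 and 61 CPM after mock (-1.69 ± 0.34, edgeR adjusted p = 0.0087). The *clf swn* libraries were at 6.96, 5.28 and 3.78 CPM and at 19.1, 16.8 and 16.9 CPM (1.71 ± 0.40, edgeR adjusted p = 0.047, and 0.15 without *cs*-ctrl C0 replicate 3). Relative to C1, 0 of the 19 passed in WT (edgeR), with a median change of -0.13, and 8 genes passed as lower in C1 than in C0. DFR was at 45.7 and 73.9 CPM in set C1 of WT. All mock libraries lay below set C0 in WT and above it in *clf swn*, with an interaction of 3.41 (edgeR adjusted p = 0.0063). LDOX and GSTF12, later steps of the same branch, changed by -1.30 and -1.39 in WT, and CHS and CHI, the first steps of flavonoid synthesis, by -1.40 and -0.84. LDOX was lost at 0.11 and GSTF12 at 0.052 without WT-M replicate 2. WT mock replicate 3 was the highest of the 3 for DFR, LDOX, GSTF12 and CHS.

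Cell division genes were slightly lower in WT. Of 22, 12 fell in WT, 0 of them by the stricter rule, 1 rose in *clf swn*, and 6 had a positive interaction (11 with the replicate block). The shares over all genes, without the block, were 7.34% lower in WT, 1.82% higher in *clf swn* and 2.84% with a positive interaction. CDKB1;1, a mitotic kinase, stood at 41.1, 34 and 31.4 CPM in untreated WT and at 25.9, 21.6 and 21.1 CPM after mock (-0.65 ± 0.11, edgeR adjusted p = 0.0042), and at 42.6, 37.6 and 43.9 CPM and 50.2, 45.5 and 42.8 CPM in *clf swn* (0.15 ± 0.11). Its interaction was 0.80 (edgeR adjusted p = 0.018, and 0.051 without WT-M replicate 2). The replication genes MCM2, MCM5, MCM7, PCNA1 and PCNA2 changed by -0.63 to -0.82 in WT, and set C1 was lower still, with PCNA1 at 22.8 and 19.9 CPM against 43.2, 26.6 and 32.7 CPM after mock. Of the 12, 4 passed with any 1 library left out, and 8 were lost, at up to 0.19 for MCM5 without WT-ctrl C0 replicate 1. Relative to C1, 0 of the 22 passed in WT (edgeR).

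Some genes of the meristem, boundary and organ polarity list fell in *clf swn*. Of 20 tested, 4 fell in *clf swn* and 1 in WT, against 1.09% and 7.34% of all genes, and 2 had a negative interaction. YAB3, which specifies the lower side of lateral organs, stood at 40.1, 44.9 and 46.1 CPM in untreated *clf swn*, 40.4 to 43.7 CPM in set C1 and 29.8, 25.6 and 24.2 CPM after mock (-0.73 ± 0.09, edgeR adjusted p = 0.0057). In WT it was at 57.7 to 66.1 CPM and at 62.7 to 67.3 CPM (0.08 ± 0.09), and the interaction was -0.80 (edgeR adjusted p = 0.0074). The *clf swn* groups did not overlap and the WT groups did. FIL, its close relative, changed by -0.66 ± 0.10 in *clf swn* and -0.36 ± 0.10 in WT (lost there at 0.13 without WT-M replicate 2), AS1, which keeps meristem genes off in leaves, by -0.45 in *clf swn*, and the boundary gene CUC2 by -0.55 in *clf swn*. YAB3 passed with any 1 *clf swn* library left out, whereas FIL, AS1 and CUC2 were lost at 0.061 without *cs*-M replicate 2, 0.08 without *cs*-ctrl C0 replicate 3 and 0.12 without *cs*-M replicate 2. STM changed by 0.18 in WT and 0.42 in *clf swn* (edgeR adjusted p = 0.052, and 0.031 with the replicate block), and WUS by 0.02 and -0.68.

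The floral transition list had 23 tested genes, of which 4 fell in WT, 1 rose and 1 fell in *clf swn*, and 2 had a positive interaction. Over all genes these shares were 7.34%, 1.82%, 1.09% and 2.84%. SOC1, an integrator that promotes flowering, stood at 52.7, 57.9 and 41.7 CPM in untreated WT and at 36.9, 40 and 38 CPM after mock (-0.42 ± 0.12, edgeR adjusted p = 0.045), and in *clf swn* at 10.2, 8.76 and 6.83 CPM and at 15.7, 15.2 and 15.3 CPM (0.83 ± 0.14, edgeR adjusted p = 0.02). It moved in opposite directions, with an interaction of 1.25 (edgeR adjusted p = 0.0056), and was lost in WT at 0.15 without WT-ctrl C0 replicate 2 and in *clf swn* at 0.068 without *cs*-M replicate 2. FLC, the repressor silenced by PRC2 after cold, stood at 11.2, 11.3 and 11.6 CPM in untreated WT and at 6.48, 7.79 and 7.66 CPM after mock (-0.65 ± 0.10, edgeR adjusted p = 0.0025), and at 73, 78.7 and 83.8 CPM and 59.2, 56.4 and 65.8 CPM in *clf swn* (-0.39 ± 0.09, edgeR adjusted p = 0.04, and 0.14 without *cs*-M replicate 2). The mock level was lower than every untreated C0 library in both genotypes, and 68.1% of the exon bases of FLC overlap other annotated genes.

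Floral organ and seed genes are classes that PRC2 silences in seedlings. Of 12 floral organ genes 0 passed in either genotype (edgeR), with the median change at 0.20 in WT and 0.07 in *clf swn*. Relative to C1, 4 of the 12 rose in WT, with a median of 1.16, and 4 had a negative interaction. AG ranged from 0.136 to 1.09 CPM over all WT and from 77 to 118 CPM over all *clf swn* libraries of C0 and mock. Of 25 embryo and seed genes, 2 rose in WT relative to C0, against 6.63% of all genes, and 0 passed in *clf swn* (edgeR). Relative to C1, 0 of the 25 passed in WT, with a median change of -0.09, and 5 rose in *clf swn* (edgeR). In WT, 4 of these genes passed as higher and 1 as lower in C1 than in C0. CRC, a 12S storage protein, was at 5696, 8759 and 7023 CPM in untreated *clf swn* and at 8597, 13966 and 14132 CPM after mock (0.77, edgeR adjusted p = 0.099), against 13.2 to 31.1 CPM in WT. Mock replicate 1 of *clf swn* lay within the untreated range and the other mock libraries above it. ABI3, a master regulator of seed maturation, rose in WT from 0.0838, 0.244 and 0.0682 CPM to 0.386, 1.05 and 0.552 CPM (2.24 ± 0.51, edgeR adjusted p = 0.016, and 0.093 without WT-M replicate 2), and was at 158 to 204 CPM in *clf swn*. EM1, a late embryogenesis protein, was the other (1.06, edgeR adjusted p = 0.036, and 0.14 without WT-M replicate 2).

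In jasmonate genes, 3 of 20 rose and 1 fell in WT, against 6.63% and 7.34% of all genes, and 0 passed in *clf swn*. Relative to C1, 0 of them passed in WT (edgeR). AOC1 and AOC2, enzymes of jasmonate synthesis, rose by 1.47 ± 0.29 and 0.95 ± 0.19 in WT (edgeR adjusted p = 0.0076 and 0.0092), and were not apart from both untreated sets. LOX3, of the same pathway, rose by 1.27 and the storage protein VSP2 fell by 1.83, and both were lost with 1 library left out (edgeR adjusted p = 0.14 without WT-M replicate 2 and 0.16 without WT-ctrl C0 replicate 2). In the salicylic acid list 3 of 13 (PR2, NIMIN1 and ICS1) fell in WT, against 7.34% of all genes, and 0 passed in *clf swn*. PR2, a beta-1,3-glucanase of defence, stood at 69.8, 81.6 and 46.4 CPM in untreated WT, 4.4 and 23.1 CPM in set C1 and 1.24, 1.55 and 8.49 CPM after mock (-4.16 ± 0.81, edgeR adjusted p = 0.0073). NIMIN1, a regulator of the salicylic acid response, and ICS1, which makes salicylic acid, changed by -1.72 and -0.63, and both were lost without WT-M replicate 2 (edgeR adjusted p = 0.074 and 0.081).

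The rapid stress genes had 2 of 22 higher and 1 lower in WT and 1 higher in *clf swn*, against 6.63%, 7.34% and 1.82% of all genes, with a median change of 0.51 in WT and 1.07 in *clf swn*. The WT genes were WRKY40 and SZF2, which rose by 1.59 and 1.15 and were lost at 0.11 without WT-ctrl C0 replicate 2 and at 0.068 without WT-ctrl C0 replicate 1, and CBF3, given above. WRKY40 was at 4.92 and 40.9 CPM in set C1 of WT, and relative to that set it changed by -0.80. The summed level of the 22 genes was 273 to 481 CPM in untreated *clf swn* and 344 to 936 CPM after mock, the highest in replicate 2. ERF5, an ethylene response factor, was at 1.93, 1.62 and 3.38 CPM in untreated *clf swn* and at 5.54, 23.7 and 9.79 CPM after mock (2.49 ± 0.55, edgeR adjusted p = 0.04, and 0.12 without *cs*-M replicate 2). HSP18-2 was the 1 heat gene of 13 to pass, in *clf swn*, from 9.4, 8.39 and 5.63 CPM to 13.6, 18.9 and 13.3 CPM (0.96 ± 0.21, edgeR adjusted p = 0.039, and 0.14 without *cs*-M replicate 2).

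Among hormone lists, the early auxin genes IAA3 and IAA4 fell in WT (-0.97 and -0.44), 2 of 13 against 7.34% of all genes. IAA4 was lost at 0.13 without WT-M replicate 3, and 0 auxin genes passed in *clf swn*. ARR9, a type-A response regulator of cytokinin, stood at 58.4, 66.1 and 70.5 CPM in untreated WT and at 42.8, 41 and 32.6 CPM after mock, and at 13.4, 13 and 6.96 CPM and 17.6, 19 and 21.8 CPM in *clf swn*. It fell in WT (-0.76 ± 0.19, edgeR adjusted p = 0.022, and 0.071 without WT-M replicate 3) and changed by 0.79 in *clf swn*, short of the test (edgeR adjusted p = 0.062), with an interaction of 1.56 (edgeR adjusted p = 0.012). The gibberellin receptors GID1A and GID1B rose in WT by 0.35 and 0.58 (lost at 0.092 without WT-ctrl C0 replicate 1 and at 0.057 without WT-M replicate 2), and GA20OX1, which makes gibberellin, changed by -1.82 ± 0.25 (edgeR adjusted p = 0.0012). Relative to C1 in WT, 0 of 9 gibberellin genes passed (edgeR). By the same test 1 of 8 cytokinin genes rose and 0 fell, and 0 of 12 auxin genes rose and 2 fell. Over all genes 0.961% rose and 1.77% fell relative to C1. Of 14 detoxification genes, 3 rose in WT and 1 fell relative to C0, against 6.63% and 7.34% of all genes, and 0 passed in *clf swn*. Relative to C1, 0 of the 14 passed in WT (edgeR), and the changes that follow are relative to C0. ABCG40, GSTU24 and UGT73B5 rose by 1.64, 1.23 and 0.99 and GSTU19 fell by 0.44, and all 4 passed with any 1 library left out, but ABCG40 and UGT73B5 were at least as high on average in set C1 of WT, at 8.35 and 19.1 CPM and at 7.65 and 11.5 CPM, as after mock. MYB29, a regulator of aliphatic glucosinolates, changed by -1.21 ± 0.22 in WT (edgeR adjusted p = 0.0049), whereas relative to set C1, at 55.1 and 63.3 CPM, it changed by 0.62.

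Among called genes with a mean of at least 2 CPM over the 6 libraries of the genotype, the 8 with the highest change in WT included AACT1 and PDF1.2. AACT1 (AT5G61160), an acyltransferase, had 2 counts over the untreated WT libraries and 509 after mock, a ratio of 240 (exact 95% interval 66.2 to 1990, counting error only), with 5.98 and 11 CPM in set C1 and 9.73, 8.79 and 15.5 CPM after mock. The plant defensin PDF1.2 had 3 counts and 255, a ratio of 80.3 (27.2 to 392), with 0.176 and 0.212 CPM in C1 and 8.57, 3.76 and 5.24 CPM after mock. Mock and C1 of WT thus shared the level of AACT1 and not that of PDF1.2.

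AT4G16260, a putative beta-1,3-glucanase, stood at 1.43, 2.13 and 2.66 CPM in untreated WT, 5.19 and 8.98 CPM in set C1 and 57.3, 42.9 and 50.6 CPM after mock (4.55 ± 0.28, edgeR adjusted p = 1.7e-05). The others were AT3G23550, a MATE-type exporter (5.16), DIN11, an oxygenase induced by darkness (4.05), Prx37, a peroxidase (3.65), the lectin gene AT3G16530 (3.42) and AT1G76470, a Rossmann-fold protein (3.34). Of these, AT3G23550 was at 29.4 and 29.8 CPM in C1, above the 18.9, 22.7 and 22.1 CPM after mock. Prx37 was the 1 gene of the 8 that also rose in *clf swn* (1.84 ± 0.42, edgeR adjusted p = 0.043, and 0.12 without *cs*-ctrl C0 replicate 1).

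At the same limit of 2 CPM, the 8 called genes with the lowest changes in WT were CIPK20, a calcium-regulated kinase (-4.56), GGCT2;1, PR2, LSU1, LHCB2.3, AT2G37870, of the lipid transfer protein family (-3.65), UMAMIT19, an amino acid exporter (-3.53), and LHCB2.1. UMAMIT19 stood at 7.63, 10.1 and 17.3 CPM in untreated WT, 7.38 and 10 CPM in set C1 and 1.08, 0.829 and 1.17 CPM after mock (edgeR adjusted p = 0.00017), and CIPK20 at 7.63, 2.25 and 4.98 CPM, 0.44 and 0.566 CPM, and 0.54, 0.0553 and 0.069 CPM. CIPK20 was at 0 in every *clf swn* library, and UMAMIT19 at no more than 0.133 CPM there. The 16 leading genes of WT passed with any 1 WT library left out.

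Above 2 CPM, the largest rise among called genes in *clf swn* was that of GILT, a thiol reductase, at 1.35, 2.17 and 0.663 CPM untreated, 4.09, 2.89 and 5.06 CPM in set C1 and 14.7, 9.69 and 19.7 CPM after mock (3.37 ± 0.39, edgeR adjusted p = 0.0046), and at 0 to 0.154 CPM in WT. BCA3, a carbonic anhydrase, rose from 7.28, 3.73 and 4.18 CPM to 25.4, 22 and 20.3 CPM (2.15 ± 0.24, edgeR adjusted p = 0.0046), with set C1 at 8.76 to 10.5 CPM. In WT it stood at 47 to 50.3 CPM and at 43.2, 29.6 and 26.7 CPM (-0.59 ± 0.20, edgeR adjusted p = 0.076, and 0.02 with the replicate block), and the interaction was 2.74 (edgeR adjusted p = 0.0022). Both genes exceeded both untreated sets of *clf swn*.

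Of the 8 leading genes that rose in *clf swn*, GILT, RVE2 and BCA3 passed with any 1 library left out. SVL3, of a glycerophosphodiesterase-like family (2.55), ERF5, NAS1, BAM9 and AT1G62660, of glycosyl hydrolase family 32 (2.16), did not, with SVL3 at 0.061 and AT1G62660 at 0.054 without *cs*-ctrl C0 replicate 3. Of the 8 that fell, the late embryogenesis gene M10 held, at 6.31, 1.55 and 6.23 CPM untreated and 0.284, 0.164 and 0.35 CPM after mock (-4.11 ± 0.60, edgeR adjusted p = 0.0099), with set C1 as low as mock, at 0.325, 0.68 and 0.0674 CPM. COR15A, COR15B, AT5G35660, a glycine-rich protein (-1.79), AT4G11340, of the TIR-NBS-LRR family (-1.66), M17, another late embryogenesis gene (-1.47), the beta-glucosidase BGLU7 (-1.34) and the RING protein AT1G49230 (-1.26) were each lost with 1 library left out, at edgeR adjusted p up to 0.12 for AT1G49230 without *cs*-M replicate 2. AT4G11340 stood at 14.5, 15.7 and 16.9 CPM untreated, 5.2, 5.95 and 8.56 CPM in set C1 and 3.55, 6.16 and 5.25 CPM after mock.

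Above a mean of 2 CPM over the 12 libraries, the largest positive interactions were those of PR2 (6.66), GGCT2;1 (4.45), LSU1 (4.30), CCA1, LHCB2.3 (4.10) and BBX29 (4.06). That of PR2 rests on *cs*-M replicate 2, at 8.46 CPM against 0.426 and 0.0874 CPM in the other *clf swn* mock libraries, and had an edgeR adjusted p of 0.031 with and 0.47 without it. BBX29, a B-box protein, fell in WT from 5.87, 2.92 and 3.41 CPM to 0.618, 0.332 and 0.897 CPM (-2.74 ± 0.60, edgeR adjusted p = 0.014, and 0.064 without WT-M replicate 2) and was at 4.06, 4.16 and 2.65 CPM and 3.06, 13.8 and 10.5 CPM in *clf swn* (1.32, edgeR adjusted p = 0.14).

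Above the same mean, the largest negative interactions were those of AT3G23550 (-5.41), DIN11 (-4.60), AT1G54870, a reductase (-3.82), AT1G15125, a methyltransferase (-3.72), SAG21 and NRT1.8 (-3.21). DIN11 had an edgeR adjusted p of 0.012, and of 0.055 without *cs*-ctrl C0 replicate 3. AT1G15125 stood at 16.3, 18.1 and 55.4 CPM in untreated WT and at 227, 198 and 154 CPM after mock (2.66 ± 0.42, edgeR adjusted p = 0.0027), with 261 and 208 CPM in set C1, and at 5.02, 3.91 and 9.54 CPM and 2.7, 3.12 and 3.06 CPM in *clf swn*. AT1G54870 had 3 counts over the untreated WT libraries and 35 after mock, a ratio of 11 (exact 95% interval 3.47 to 56), and lay at 199 to 485 CPM in *clf swn* (interaction edgeR adjusted p = 0.027, and 0.089 without WT-M replicate 2). Of the 6 genes, DIN11 was the one whose WT mock libraries exceeded both untreated sets by the stricter rule.

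Some genes set mock apart from both untreated sets. With C0 and C1 together, 45 genes were called higher and 47 lower in WT, of which 42 and 43 were also called against C0 alone (17.4% and 15% of those calls), and 26 and 7 in *clf swn*, of which 21 and 7 were (20% and 30.4%). Besides PDF1.2, AT4G16260, CSD1, CSD2 and RVE2, the WT genes included PR4 and the basic chitinase HCHIB, defence proteins induced by ethylene and jasmonate, and EBP, an ethylene response factor. PR4 was at 36.4, 50.2 and 57.5 CPM in C0, 124 and 103 CPM in C1 and 358, 326 and 366 CPM after mock, and EBP at 191, 233 and 234 CPM, 211 and 193 CPM, and 593, 579 and 609 CPM. The log2 changes against both sets were 2.21 ± 0.36 and 1.46 ± 0.11 (edgeR adjusted p = 0.0037 and 3.1e-06), and in *clf swn* the changes against C0 were 1.37 (edgeR adjusted p = 0.06) and -0.01.

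ASN2, an asparagine synthetase, was at 81 to 85.4 CPM in C0 of WT, 91.7 and 94.1 CPM in C1 and 223, 191 and 246 CPM after mock. On the lower side, FUM2, the cytosolic fumarase, stood at 43.7, 51.4 and 35 CPM in C0, 22.7 and 51 CPM in C1 and 4.09, 6.8 and 6.69 CPM after mock (-2.81 ± 0.25, edgeR adjusted p = 2.9e-05), and it changed by 0.16 in *clf swn*. PORA, which makes chlorophyllide in light, was at 3.47 to 14.3 CPM in the 5 untreated WT libraries and at 1.62, 1.88 and 0.759 CPM after mock. In *clf swn* the genes apart from both sets included EPR1 (AT2G27380), an extensin-like gene, at 29, 35.3 and 28.8 CPM in C0, 23.6 to 30.5 CPM in C1 and 67.7, 164 and 147 CPM after mock (2.16 ± 0.22, edgeR adjusted p = 0.00028), GILT, BCA3 and LUP1, a triterpene synthase, at 8.81 to 23.8 CPM untreated and 54, 42.1 and 43.3 CPM after mock.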

How the data were processed

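Shoot apex RNA was sequenced on an Illumina HiSeq from TruSeq v2 libraries, whose strandedness is not given in the sources used here. The authors trimmed reads with Trimmomatic 0.32, aligned them to TAIR10 with TopHat2 2.0.10, kept unique alignments and counted them per gene with HTSeq, and the submitters' processing notes also name FastQC and DESeq2. The paper itself names DESeq for its differential expression, so its calls come from a different test than those given here. The deposited table holds raw counts of 28775 genes in 35 libraries, with no normalization.

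From these counts the 12 libraries were fitted with edgeR 4.0.16 (R 4.3.3, limma 3.58.1) by filterByExpr, TMM, the quasi-likelihood test and the Benjamini-Hochberg method, with 1 mean per group and no block. Genes were called at an adjusted p under 0.05 with at least 0.6 (log2) between the nearest libraries of both groups, zeros being set to 0.01 CPM. The interaction and the mean change used the adjusted p alone. SE is the size of the log2 change divided by the square root of F. The code was tested on simulated data.

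Replicates were made at different times and sequenced in separate lanes, which pairs them across groups. Deviations from the group means correlated at -0.04 to 0.40 (median 0.16, n = 18 pairs) for equal replicate numbers and at -0.30 to 0.09 (median -0.06, n = 36) for different ones. No 2 libraries were identical. The authors describe the replicates as independent biological triplicates, and p-values measure the spread between these samples. Whether C0 and C1 libraries of equal replicate number came from separate plants is not given.

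The members and the 32 lists (469 genes) were chosen with earlier results of these data known. The rule for named genes took up to 4 called examples per list by size of change, all clock genes, CLF and SWN, and, at a mean of at least 2 CPM, the 8 leading called genes per direction and genotype and the 6 leading interactions per direction. Other genes named, copper genes among them, were chosen after their values were seen. Alternatives were DESeq2 1.42.0, RLE factors, other filters (none beyond 1 count, or 10 counts in every library), the replicate block, a fit of all 35 libraries, the other untreated sets, other call rules and leaving out each library. The untreated sets with the block were added after seeing the data.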

Additional observations from a re-analysis of the deposited data

Results flagged for a closer look

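The summed CPM of each gene list was compared among the untreated libraries of both sets in each genotype, 64 comparisons in all, by the gap of the most extreme library to its neighbour. Chance marks about 1 in 20 such groups. In untreated WT, C1 replicate 1 had the highest sum of seed genes (143 CPM, next 89.7 CPM) and the lowest of abscisic acid and cold genes (1046 CPM, next 2048 CPM), and C1 replicate 2 the highest of rapid stress genes (1114 CPM, next 502 CPM). In untreated *clf swn*, C0 replicate 3 had the highest sum of heat genes (376 CPM, next 221 CPM) and the lowest of phosphate starvation genes (171 CPM, next 244 CPM), and C0 replicate 1 the highest of glucosinolate genes (594 CPM, next 310 CPM). The WT libraries concerned belong to set C1 and enter only the comparisons that use it, whereas those of *clf swn* belong to set C0.

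By the interaction test, the log2 change after mock differed most between the genotypes for PR2 (6.66), GGCT2;1 (4.45), LSU1 (4.30), CCA1 (4.13), LHCB2.3 (4.10) and BBX29 (4.06), where that of *clf swn* was the higher. It differed in the other direction for AT3G23550 (-5.41), DIN11 (-4.60), AT1G54870 (-3.82), AT1G15125 (-3.72), SAG21 (-3.22) and NRT1.8 (-3.21).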

How the results depend on the processing

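The counts moved with the untreated libraries used, above all in WT, and in *clf swn* also with single libraries and the call rule. The cause was not tested, and which set matches the mock libraries is not known. In the stricter calls, higher and lower, WT had 242 and 286 with set C0, 88 and 104 with C1 (103 and 102 with the replicate block), 45 and 47 with both sets (43 and 43 with the block) and 46 and 44 in a fit of all 35 libraries. The *clf swn* calls, 105 and 23, became 26 and 7 with both sets (26 and 6 with the block) and 24 and 4 in the fit of all 35. By the adjusted p alone WT had 1321 and 1462, then 192 and 354 with C1, 263 and 411 with both sets and 266 and 337 in the fit of all 35, and the 218 lower genes of *clf swn* became 126 with both sets and 72 in the fit of all 35. The interactions, 566 and 316, became 297 and 138 with C1, 140 and 42 with both sets (132 and 41 with the block) and 147 and 45 in the fit of all 35.

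With the replicate block, *clf swn* had 623 and 406 genes by the adjusted p alone (852 and 468 with DESeq2), the interaction 874 and 513 (962 and 568 with DESeq2), and C1 against C0 in *clf swn* 403 and 341 (516 and 400 with DESeq2). With at least 10 counts in every library, WT had 147 and 173 calls and *clf swn* 13 lower calls, with fewer genes tested. The adjusted p alone gave 1321, 1462, 363 and 218 genes in the order WT higher, WT lower, *clf swn* higher and lower, and with a fitted change of at least 0.6 it gave 631, 751, 242 and 73. Fitting *clf swn* alone gave 61 and 8 calls. With the stricter rule, C1 against C0 gave 292 and 386 genes in WT and 39 and 58 in *clf swn*.

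Leaving out 1 library at a time, the stricter calls ranged from 198 to 396 higher and 273 to 399 lower in WT, and from 34 to 179 and 4 to 34 in *clf swn*. By the adjusted p alone the ranges were 584 to 1341 and 717 to 1469 in WT, and 48 to 441 and 14 to 189 in *clf swn*. Those of the interaction were 302 to 571 and 119 to 296, and those of the mean change 758 to 1354 and 670 to 1118. C1 against C0 ranged from 683 to 1577 and 663 to 1557 in WT, and from 0 to 263 and 3 to 212 in *clf swn*.

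Of the named genes past the test, all 90 in WT, 22 in *clf swn* and 53 interactions kept their call and direction with the replicate block, so the block ended none of these calls, and RLE factors ended 1 in *clf swn* and DESeq2 1 in WT. Set C1 in place of C0 ended 48, 13 and 30 of them and turned the direction of 18, 1 and 12. The WT log2 changes that turned became 0.10 for CCA1, 1.22 for LHY, 0.30 for RVE8, 0.18 for RVE7, -0.10 for TOC1, -0.14 for ELF3, -0.19 for BOA, -0.18 for GRP7, 0.34 for BBX19, -0.80 for WRKY40, 0.41 for LSU1, 0.62 for MYB29, -0.25 for ABCG40, -0.17 for UGT73B5, -0.50 for AT3G23550, -0.97 for AT1G54870, -0.31 for AT1G15125 and -1.25 for NRT1.8, which with both sets was -0.05. In *clf swn* AT1G49230 became 0.79. The interactions became -0.06 for LHY, 0.09 for BOA, -0.23 for BAM9, -0.22 for LSU1, -0.18 for SDI1, 0.13 for ABCG40, 0.51 for AT3G23550, 0.08 for AT3G16530, -0.82 for NAS1, 0.49 for AT1G54870, 0.25 for AT1G15125 and 1.67 for NRT1.8. Genes under about 0.2 CPM rest on 3 counts or fewer in a library.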
